A study of Homo sapiens with 54 samples.

Results

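This account concerns 8 human genes of the complement system. C3, CFB, C1S and C1R encode components, and SERPING1, CD55, CD46 and CD59 encode inhibitors. The members were the probe sets that the platform annotation maps to 1 of these 8 symbols alone. There were 15 such probe sets among the 22215 probe sets that were no controls, and 8 genes among the 11963 with a probe set of their own. A filter on low signal kept 14 of the 15 member probe sets. The one it removed, 211920_at, is an additional probe set of CFB, so all 8 genes stayed measured.

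The RNA came from HT-29, a human colon adenocarcinoma line of epithelial origin. All cells, the untreated ones included, had been sensitized with interferon-gamma at 200 U/ml for 24 h, and no array of cells without interferon-gamma was used here. The further treatments were tumour necrosis factor (TNF, 5 ng/ml or 100 ng/ml), epidermal growth factor (EGF, 100 ng/ml) and insulin (500 ng/ml), the high-dose pairs TNF 100 ng/ml plus EGF 100 ng/ml and TNF 100 ng/ml plus insulin 500 ng/ml, and the low-dose pairs TNF 5 ng/ml plus EGF 1 ng/ml and TNF 5 ng/ml plus insulin 5 ng/ml. Untreated cells received the interferon-gamma alone. RNA was taken at 4, 8 and 16 h in 2 biological replicates, which made 54 Affymetrix arrays in 27 groups.

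Complement is a cascade of plasma and cell-surface proteins that marks targets for uptake and can puncture membranes. The proteases C1r and C1s start the classical pathway, factor B (CFB) supplies the protease of the alternative pathway, and all routes meet at the cleavage of C3. SERPING1 encodes C1 inhibitor, a secreted serpin that blocks C1r and C1s. Host cells carry membrane inhibitors of their own: CD55 speeds the decay of the enzymes that cleave C3, CD46 is a cofactor for the inactivation of C3b and C4b, and CD59 blocks the final membrane attack complex. Most plasma complement comes from the liver, but intestinal epithelial cells also make complement proteins, and C3 and CFB are known targets of inflammatory cytokines. TNF acts on transcription largely through NF-kappa-B.

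Promoter windows are shown for CFB, C1R, CD55 and CD59 because these genes changed in the comparisons below. RefSeq windows on GRCh38.p14, with 250 bases before and 50 bases after an annotated start site, were found for 5 of the 8 genes. Both strands were searched for the kappa-B consensus, the GAS sequence TTCNNNGAA, the ISRE core (GAAA, any 2 bases, GAAA) and the C/EBP sequence TTGCNNAA. Capitals mark the matches. The windows lie at chr6:31945845-31946144 on the plus strand for CFB, at chr12:7092396-7092695 and chr12:7091844-7092143 on the minus strand for C1R, at chr1:207321428-207321727 on the plus strand for CD55, and at chr11:33736430-33736729 on the minus strand for CD59.
CFB: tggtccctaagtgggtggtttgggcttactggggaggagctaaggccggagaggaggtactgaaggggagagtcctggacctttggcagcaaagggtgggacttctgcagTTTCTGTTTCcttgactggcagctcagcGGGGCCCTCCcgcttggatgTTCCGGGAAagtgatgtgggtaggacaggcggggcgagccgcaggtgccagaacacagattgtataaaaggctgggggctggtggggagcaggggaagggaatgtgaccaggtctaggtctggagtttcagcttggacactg
C1R, first window: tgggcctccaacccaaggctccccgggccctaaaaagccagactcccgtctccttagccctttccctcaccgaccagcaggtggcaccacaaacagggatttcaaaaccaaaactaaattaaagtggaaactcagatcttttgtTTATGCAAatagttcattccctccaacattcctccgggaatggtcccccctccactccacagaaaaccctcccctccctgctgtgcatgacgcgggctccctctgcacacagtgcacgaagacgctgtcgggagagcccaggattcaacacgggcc
C1R, second window: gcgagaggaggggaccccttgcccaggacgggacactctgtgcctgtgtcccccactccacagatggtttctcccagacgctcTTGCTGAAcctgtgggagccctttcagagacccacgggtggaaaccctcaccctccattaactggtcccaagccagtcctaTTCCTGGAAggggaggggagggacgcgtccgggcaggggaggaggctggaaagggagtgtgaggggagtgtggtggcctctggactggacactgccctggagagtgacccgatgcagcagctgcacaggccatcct
CD55: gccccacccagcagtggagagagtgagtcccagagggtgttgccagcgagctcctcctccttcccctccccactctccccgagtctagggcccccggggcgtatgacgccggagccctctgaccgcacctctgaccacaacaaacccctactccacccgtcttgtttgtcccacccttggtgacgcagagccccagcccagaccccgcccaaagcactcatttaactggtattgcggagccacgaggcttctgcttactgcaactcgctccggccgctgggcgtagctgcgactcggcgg
CD59, first window: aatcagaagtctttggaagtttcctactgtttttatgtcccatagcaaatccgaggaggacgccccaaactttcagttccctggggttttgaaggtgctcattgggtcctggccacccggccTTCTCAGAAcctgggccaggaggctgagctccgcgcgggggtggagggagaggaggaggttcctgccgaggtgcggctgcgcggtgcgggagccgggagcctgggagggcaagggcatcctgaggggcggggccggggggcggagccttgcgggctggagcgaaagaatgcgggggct

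The CFB window held 3 of the 4 motifs. The ISRE core, on the minus strand, lay at positions -140 to -131 from the start site, the kappa-B match GGGGCCCTCC at -112 to -103 and the GAS match TTCCGGGAA at -92 to -84, and none of these overlapped. The second C1R window held a GAS match, TTCCTGGAA at -86 to -78, and each C1R window held 1 C/EBP match. CD59 has 4 windows in RefSeq, of which the first is shown. It held the GAS match TTCTCAGAA at -128 to -120, which the overlapping second window holds at -184 to -176. The third held 2 C/EBP matches, at -191 to -184 and -53 to -46, and the fourth none of the patterns. The CD55 window and both CD46 windows had none of the 4 letter patterns. Of 35116 windows of the same length, 11.3% held the kappa-B consensus, 7.66% the GAS sequence, 3.57% the ISRE core and 10.5% the C/EBP sequence. A match is a description of the sequence and was not measured as a binding site.

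Signals are the deposited linear MAS5 values. Where 2 values are given for a group, they are replicates 1 and 2. A change is a difference in log2(signal + 12.49), where the added constant is the 10th percentile of all signals. It is the mean of the differences at 4, 8 and 16 h, with its standard error, unless a time is named, and n is 6 arrays for each treatment, or 2 at a single time. The adjusted p comes from limma, as an F test over the 3 times or a moderated test at 1 time, with Benjamini-Hochberg adjustment over the 13422 probe sets kept. A gene is called at an adjusted p under 0.05. Each gene is represented by its probe set with the highest mean signal, and no signal is set against that of another gene. Where 2 treatments are said to be apart or not to overlap at a time, 2 arrays are set against 2 and no test is meant. The share of all probe sets apart in this way was not counted. The number of arrays limits the precision of every value.

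Array medians lay between 111 and 168, and replicate arrays of a group correlated at 0.929 to 0.977 across probe sets. Of 11 colon epithelial markers 9 passed the filter, among them EPCAM and KRT20, while CDX1 and CDX2 had mean signals of 24.1 and 12.2. PTPRC, the pan-leukocyte marker, averaged 22.4, and ALB, the defining hepatocyte marker, 39.4. Other markers on these lists were high, with means of 6688 for LYZ (leukocytes) and 6181 for SERPINA1 (hepatocytes). Of the markers on the array, 3 of 7 for leukocytes and 2 of 6 for hepatocytes passed the filter. So did 4 of 7 for fibroblasts and 1 of 4 for endothelium. The 8 h arrays of replicate 2 had a higher ratio of ACTB signal from the 3′ to the 5′ end, a sign of shortened RNA, with a median log2 of 0.32 against -0.04 in the other 45 arrays. These 45 included the 16 h arrays of replicate 2, whose values ran from 0.02 to 0.43. A replicate 1 array at 16 h, with TNF 100 ng/ml plus insulin 500 ng/ml, had 0.63. The 16 h arrays of replicate 2 were not left out as a set. Where a call on 1 of the 8 genes was lost without the 8 h arrays of replicate 2, the adjusted p without them is given beside it.

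TNF at 100 ng/ml raised 7 of the 8 genes and lowered none. Over all probe sets 16.3% were called in this comparison, 6.69% as higher. C3 changed by 3.47 ± 0.24, C1S by 2.97 ± 0.14, CFB by 1.69 ± 0.10 and C1R by 1.65 ± 0.13. The inhibitors SERPING1, CD59 and CD55 rose by a mean of 0.74 ± 0.08, 0.76 ± 0.11 and 0.57 ± 0.11, and CD46 was not called. At single times SERPING1 and CD59 were called at 16 h only and CD55 at 4 h only. At 16 h the CD55 arrays with TNF lay below the untreated ones. The median of the 8 genes was 1.21, against -0.08 for all probe sets kept. In RNA from whole cultures, fewer cells that express a gene and less RNA per cell cannot be told apart. Of the probe sets called, 40.9% were higher, and 58.6% after median centring of the arrays. Centring also moved this share to 71.3%, against 49.4%, between the TNF doses (61.8% with quantile normalization), to 64.3%, against 43.8%, for TNF with insulin against insulin, to 78.6%, against 60.0%, for EGF added to TNF, and to 14.3%, against 35.5%, for insulin alone.

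**Figure D1:**
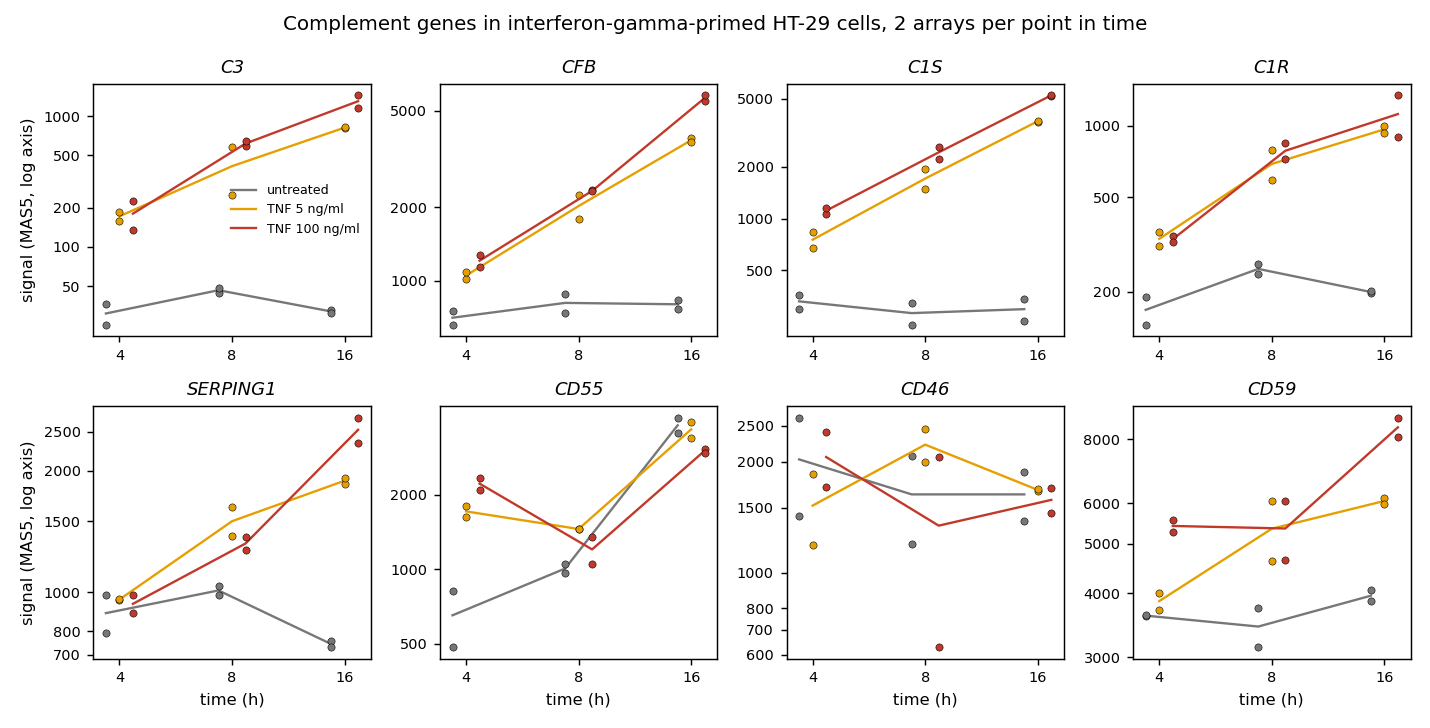
Signal of the representative probe set of each gene (log axis) at 4, 8 and 16 h in untreated cells and cells given TNF at 5 or 100 ng/ml, with a point per array and a line through the means of 2 arrays. The 4 components climb away from flat untreated values with time, CD55 climbs in untreated cells as well, and CD46 was not called.

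C3, the central component, was near the bottom of the scale without TNF. At 4, 8 and 16 h its signals were 134 and 225, 589 and 646, and 1449 and 1154 in cells given TNF at 100 ng/ml. In untreated cells they were 36.4 and 25.4, 44.4 and 48.7, and 32.8 and 31.3 at the same times. Every treated array was above every untreated one at each time, and the treated values climbed with time while the untreated ones stayed level. The differences at the 3 times were 2.12 ± 0.42, 3.41 ± 0.42 and 4.87 ± 0.42 (adjusted p = 1.03e-12 over the times), and the last is 29.3-fold on the log2(signal + 12.49) scale. Because the untreated signals are low, this size depends on the constant: the mean of 3.47 ± 0.24 became 3.86 with no constant and 2.77 with one 4 times as high. C3 passed the filter only through groups with TNF, since none of its 18 arrays without TNF exceeded 49.9, so a gene kept in this way had to differ. Without any filter its adjusted p was 1.5e-12.

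Factor B was measured in untreated cells already. CFB had signals of 1281 and 1135 at 4 h, 2350.4 and 2326 at 8 h and 5468 and 5785 at 16 h with TNF at 100 ng/ml, and of 749 and 660.3, 739 and 882, and 831 and 769 without. The groups did not overlap at any time. Its change was 0.77 ± 0.17, 1.52 ± 0.17 and 2.80 ± 0.17 at the 3 times, 6.94-fold at 16 h (adjusted p = 8.87e-16). The additional CFB probe set 211920_at stayed between 6.0 and 119 on all arrays and was not tested.

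C1S and C1R, whose genes are neighbours on chromosome 12, were also higher with TNF at each time. C1S, the protease of the C1 complex that cleaves C4 and C2, had signals of 1066 and 1157, 2632 and 2238, and 5227 and 5257 at 4, 8 and 16 h with TNF at 100 ng/ml, against 359 and 297, 320.3 and 240.2, and 253 and 338 in untreated cells. Its change at 16 h was 4.11 ± 0.24, or 17.2-fold (adjusted p over the times 1.44e-17). C1R, the protease that activates C1s, had 341 and 323, 721 and 847, and 1346 and 893 with TNF at 100 ng/ml, against 189.7 and 145, 260.5 and 238, and 197 and 201 in untreated cells. For both genes all treated arrays exceeded all untreated arrays at each time. C1R changed by 2.39 ± 0.23 at 16 h, or 5.24-fold (adjusted p over the times 4.44e-11). The single-time tests at 4, 8 and 16 h called 2.7%, 2.78% and 5.47% of all probe sets as higher. At 4 h both genes were called, C1S with an adjusted p of 2.87e-06 and C1R of 0.00999, and the C1R call was lost without either 4 h array of TNF or the second untreated 4 h array (adjusted p at most 0.199) or in a fit of only the groups compared (0.0709).

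SERPING1, the inhibitor of C1r and C1s, was called at 16 h and not at 4 or 8 h with TNF at 100 ng/ml. Its signals with TNF at 100 ng/ml were 984 and 887 at 4 h, 1369 and 1272 at 8 h and 2708 and 2349 at 16 h. In untreated cells they were 791 and 983, 986 and 1034, and 757 and 729.8. The groups overlapped at 4 h and were apart at 8 and 16 h. The changes were 0.08 ± 0.14 (adjusted p = 0.94), 0.38 ± 0.14 (adjusted p = 0.106) and 1.75 ± 0.14 (adjusted p = 8.8e-12), and the rise was 3.35-fold at 16 h. With TNF at 5 ng/ml SERPING1 was called at 16 h and also at 8 h, at 0.56 ± 0.14 (adjusted p = 0.0159). The 8 h call was lost without the 8 h arrays of replicate 2 (adjusted p = 0.119), without the first array of TNF or either untreated array (at most 0.217), under median centring (0.306) and in a fit of only the groups compared (0.179).

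CD59, which blocks the membrane attack complex, rose on all 4 of its probe sets. Its representative, 200983_x_at, had signals of 5555 and 5273 at 4 h, 6053 and 4653 at 8 h and 8064 and 8801 at 16 h with TNF at 100 ng/ml, and of 3606 and 3633, 3752 and 3139.7, and 4058 and 3858 in untreated cells. The groups did not overlap at any time. The change over the times had an adjusted p of 2.46e-05, and the other probe sets changed by 0.69 ± 0.11, 1.04 ± 0.10 and 0.85 ± 0.22 (adjusted p = 7.3e-05, 5.22e-09 and 0.0374). At single times the representative was called at 16 h, at 2.13-fold, and not at 4 h (adjusted p = 0.0998) or 8 h (adjusted p = 0.0513). With the 8 h replicate numbers as a block, those p-values became 0.0467 and 0.0224.

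CD55, which disables the enzymes that cleave C3, was higher with TNF at 4 h and not at 16 h. With TNF at 100 ng/ml its signals on 201925_s_at were 2103 and 2342 at 4 h, 1356 and 1049.8 at 8 h and 3079 and 2963 at 16 h, against 483 and 818, 963 and 1049.8, and 4107 and 3551 in untreated cells. Treated arrays were above untreated ones at 4 h and below them at 16 h, and at 8 h the lower treated and the higher untreated array met at 1049.8. The 4 h difference of 1.80 ± 0.19 passed the single-time test (adjusted p = 1.5e-08), while those of 0.24 ± 0.19 at 8 h (0.59) and -0.34 ± 0.19 at 16 h (0.304) did not. The second probe set, 201926_s_at, gave 1.28 ± 0.23, 0.96 ± 0.23 and 0.06 ± 0.23, of which the first 2 passed (adjusted p = 0.000228 and 0.007) and the last did not (0.935).

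CD46, the cofactor for C3b inactivation, did not pass the test on any of its 3 probe sets. The representative, 207549_x_at, changed by -0.14 ± 0.24 with TNF at 100 ng/ml (95% interval -0.64 to 0.35, adjusted p = 0.915). Its signals were 2409 and 1711, 2056 and 628, and 1452 and 1701 at 4, 8 and 16 h with TNF at 100 ng/ml, and 2631 and 1427, 2068 and 1194, and 1881 and 1381 in untreated cells, and the groups overlapped at every time. The second 8 h array, at 628, was the lowest of the 54 for this probe set. That array and the second 8 h array with insulin at 500 ng/ml, at 873, had the highest ACTB ratios of all arrays, with log2 values of 1.19 and 0.98. The part of RNA quality in these 2 values was not tested.

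TNF at 5 ng/ml called the same 7 genes as higher, against untreated arrays that it shares with the higher dose. Here 6.81% of all probe sets were called, 4.26% as higher. C3 changed by 3.02 ± 0.24, C1S by 2.44 ± 0.14, C1R by 1.52 ± 0.13 and CFB by 1.37 ± 0.10. Among the inhibitors SERPING1 changed by 0.67 ± 0.08, CD55 by 0.63 ± 0.11 and CD59 by 0.44 ± 0.11 (adjusted p = 0.0204), and CD46 by 0.06 ± 0.24 (adjusted p = 0.861). The CD59 call was lost when any 16 h array, the first 8 h array of TNF or the second untreated 8 h array was left out, with an adjusted p of 0.103 at most. It was also lost without the 8 h arrays of replicate 2 (adjusted p = 0.0699), without all 8 h arrays (0.145) and under median centring (0.133). C3 signals with this dose were 185 and 158, 579 and 249, and 811 and 823, and C1S signals 833 and 671, 1935 and 1488, and 3666 and 3736, all above the untreated arrays given before.

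**Figure D2:**
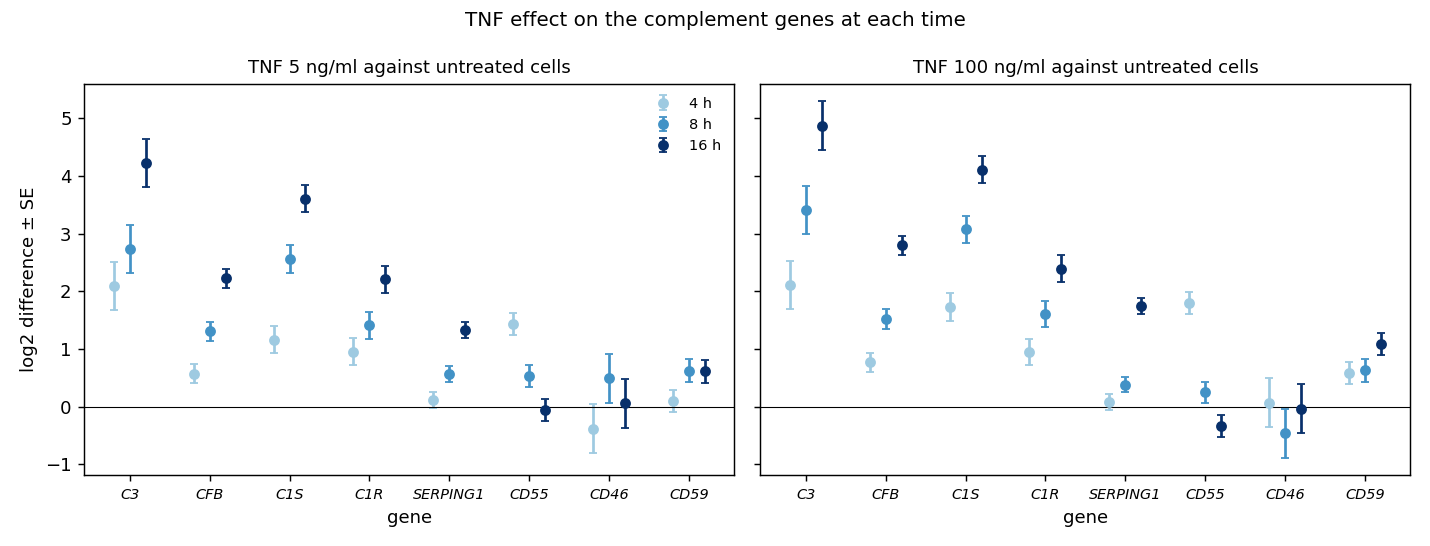
Log2 difference from untreated cells, with its standard error, at 4, 8 and 16 h (light to dark) for TNF at 5 ng/ml (left) and 100 ng/ml (right). The components and SERPING1 run upward with time, reaching 4.87 for C3 at the higher dose, where CD55 has 1.80 at 4 h and -0.34 at 16 h.

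No member passed the test between the doses. TNF at 100 ng/ml against 5 ng/ml called 0 of the 8 genes and 1.27% of all probe sets. An unadjusted p under 0.05 was found for 4 members and 1313 probe sets. C1S was 0.53 ± 0.14 higher at the higher dose (95% interval 0.25 to 0.80, adjusted p = 0.191) and CFB 0.33 ± 0.10 higher (95% interval 0.13 to 0.52, adjusted p = 0.185). In both genes each array with 100 ng/ml lay above each array with 5 ng/ml at every time. The share of all probe sets with such a separation was not counted, so it adds nothing to the test. At 16 h CFB had 5468 and 5785 with 100 ng/ml and 3838 and 3713 with 5 ng/ml, and C1S had 5227 and 5257 with 100 ng/ml and 3666 and 3736 with 5 ng/ml. C3 differed by 0.45 ± 0.24 (95% interval -0.04 to 0.94), C1R by 0.12 ± 0.13 (-0.15 to 0.40) and SERPING1 by 0.07 ± 0.08 (-0.10 to 0.23).

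EGF at 100 ng/ml called 2 of the 8 genes, both membrane inhibitors and both higher. Few probe sets were called in this comparison, 0.596% in all and 0.529% as higher. CD55 rose by 1.02 ± 0.11 (adjusted p = 2e-07) and by 1.26 ± 0.13 on its second probe set (adjusted p = 6.22e-07). Its signals were 1867 and 2398 at 4 h, 2024 and 2334 at 8 h and 3918 and 5002 at 16 h with EGF, against 483 and 818, 963 and 1049.8, and 4107 and 3551 in untreated cells. The EGF arrays were higher at 4 and 8 h and overlapped the untreated ones at 16 h, and the single-time changes were 1.73 ± 0.19, 1.10 ± 0.19 and 0.21 ± 0.19 (adjusted p = 6.18e-07, 0.00272 and 0.999). The 8 h call was lost without the 8 h arrays of replicate 2 (adjusted p = 0.68), without the second 8 h array of EGF (0.178) or the first untreated one (0.0624), and in a fit of only the groups compared (0.354). At 4 and 8 h, 0.365% and 0.142% of all probe sets were called as higher.

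CD59 rose with EGF by 0.60 ± 0.11 (adjusted p = 0.0246). Its signals were 6631 and 4427, 5836 and 5243, and 5797 and 5613 with EGF, against 3606 and 3633, 3752 and 3139.7, and 4058 and 3858 in untreated cells, with no overlap at any time. The call was lost without the 8 h arrays of replicate 2 (adjusted p = 0.16). Of the 12 arrays, it held only without the first untreated 8 h or 16 h array or the second 4 h array of EGF, and was lost without each of the other 9 (adjusted p at most 0.118). The probe set 200985_s_at changed by 0.92 ± 0.10 (adjusted p = 2.83e-06) and 200984_s_at by 0.56 ± 0.11 (adjusted p = 0.0315), while 212463_at was not called (0.67 ± 0.22, adjusted p = 0.768). The components and SERPING1 were not called, with changes between -0.22 for CFB and 0.24 for C1S.

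**Figure D3:**
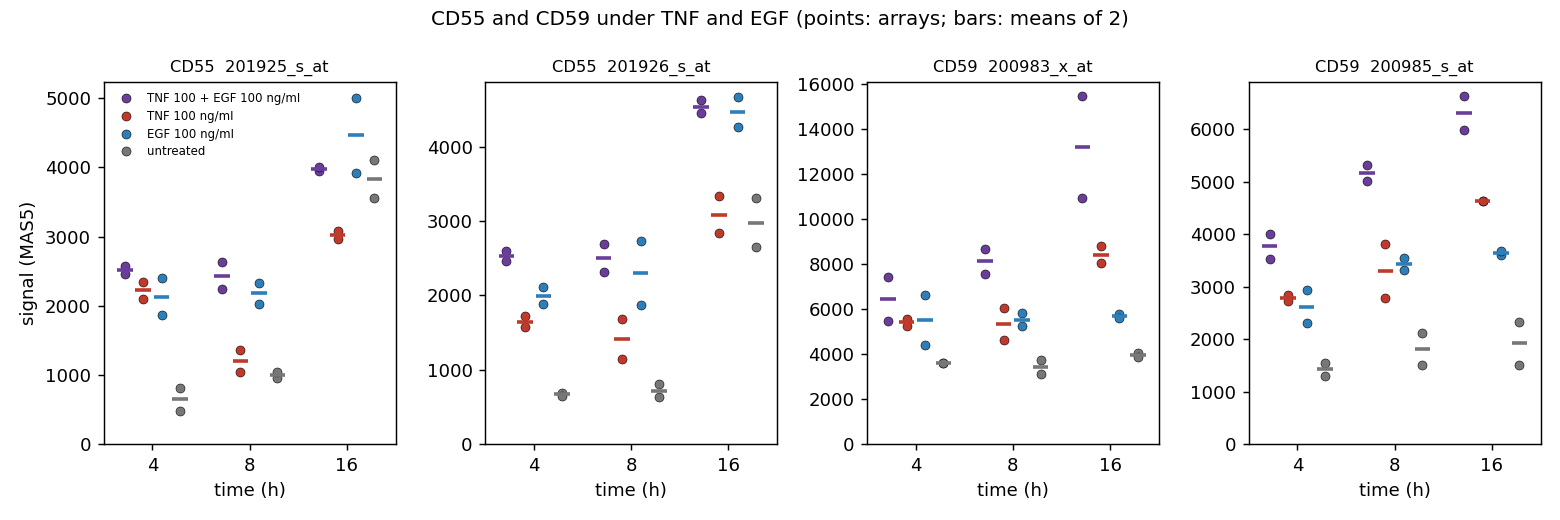
Signal of 2 probe sets each of CD55 and CD59 at 4, 8 and 16 h, with a point per array and a bar at the mean of 2, for TNF with EGF, TNF alone, EGF alone and untreated cells. CD55 with both factors at 8 h, at 2632 and 2238 on 201925_s_at, lies above TNF alone at 1356 and 1049.8, and CD59 with both factors at 16 h, at 15471 and 10944 on 200983_x_at, lies above the other 3 treatments.

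Insulin at 500 ng/ml called 0 of the 8 genes and 0.231% of all probe sets. An unadjusted p under 0.05 was found for 3 members and 771 probe sets. The values farthest from 0 were those of SERPING1, -0.32 ± 0.08 (95% interval -0.48 to -0.16, adjusted p = 0.212), and CFB, -0.29 ± 0.10 (-0.49 to -0.10, adjusted p = 0.64). At 16 h SERPING1 had 596 and 481 with insulin and 757 and 729.8 without, and the groups did not overlap. C1S had 103 and 287 at 16 h with insulin, replicates that lay far apart, and its mean change was -0.21 ± 0.14 (adjusted p = 0.783). Without the first of these 2 arrays the C1S change was 0.02 (adjusted p = 1), and without the second it was -0.44 and passed (adjusted p = 0.00345).

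Adding EGF at 100 ng/ml to TNF at 100 ng/ml called CD55 alone among the 8 genes, as higher than with TNF alone, and 0.224% of all probe sets, 0.134% as higher. The change was 0.53 ± 0.11 (adjusted p = 0.0217) and at 8 h it was 1.02 ± 0.19 (adjusted p = 0.0211), where 0.0224% of all probe sets were called as higher. At that time the signals were 2632 and 2238 with both factors and 1356 and 1049.8 with TNF alone. The 8 h call was lost under quantile normalization (adjusted p = 0.0512), median centring (0.189), no intensity trend (0.0509) and a fit of only the groups compared (0.132), and without the 8 h arrays of replicate 2 (0.954), the second of TNF (0.613) or either of the pair (at most 0.079). For the test over the 3 times the adjusted p without the 8 h arrays of replicate 2 was 0.718. That call was also lost without either 8 h array of the pair, the first 4 h array of TNF, or its second array at 8 h (adjusted p = 0.435) or at 16 h. On 201926_s_at the change was 0.67 ± 0.13 (adjusted p = 0.0649).

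CD59 was 0.49 ± 0.11 higher with both factors than with TNF alone, which did not pass (adjusted p = 0.203). Its arrays with both factors, 15471 and 10944 at 16 h, were above those with TNF alone, 8064 and 8801, and the 8 h arrays, 7575 and 8679.5 against 6053 and 4653, were apart too. C3 lay lower with both factors, at 126 and 77.6, 439 and 327, and 928 and 1120.2 over the 3 times, than with TNF alone at each time, but its change of -0.59 ± 0.24 had an adjusted p of 1. CFB, C1S, C1R and SERPING1 changed by -0.10, -0.21, -0.15 and -0.22, none of them called.

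Set against EGF alone, TNF with EGF called 6 of the 8 genes as higher, where 14.4% of all probe sets were called, 5.68% as higher. C3 changed by 3.02 ± 0.24, C1S by 2.51 ± 0.14, CFB by 1.81 ± 0.10, C1R by 1.26 ± 0.13, CD59 by 0.66 ± 0.11 and SERPING1 by 0.55 ± 0.08. CD55 was not among them, at 0.08 ± 0.11 (95% interval -0.14 to 0.31, adjusted p = 0.682). The signals of CD55 with both factors at 4 h were 2570.4 and 2456, against 1867 and 2398 with EGF alone. At 16 h they were 3949.7 and 3999.9 with both factors and 3918 and 5002 with EGF alone, so that the groups overlapped.

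The interaction of TNF and EGF tests whether the effect of both factors differs from the sum of their effects. Over the 3 times it called 0 of the 8 genes and 0.0298% of all probe sets. An unadjusted p under 0.05 was found for 2 members and 358 probe sets. For CD55 the interaction was -0.49 ± 0.16 (adjusted p = 0.0746). At 4 h alone CD55 passed, at -1.55 ± 0.27 (adjusted p = 0.0235), where 0.0149% of all probe sets were called. The 4 h signals were 2570.4 and 2456 with both factors, 2103 and 2342 with TNF, 1867 and 2398 with EGF and 483 and 818 without either. The second probe set gave -0.93 ± 0.32 (adjusted p = 1). The call on the first was lost without either 4 h array of TNF or of the pair, the second of EGF or the first untreated one, whose absence left -1.18 (adjusted p = 0.227). It was also lost under median centring (adjusted p = 0.284), with no intensity trend (0.0561) and in a fit of only the groups compared (0.156).

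Insulin at 500 ng/ml added to TNF at 100 ng/ml called 0 of the 8 genes and 0.499% of all probe sets. An unadjusted p under 0.05 was found for 2 members and 1083 probe sets. CD55 came closest (adjusted p = 0.0742), with -0.73 at 4 h, 0.45 at 8 h and 0.27 at 16 h, so that its mean was -0.01 ± 0.11. With the 8 h replicate numbers as a block its adjusted p was 0.044. Its 4 h signals were 1117 and 1582 with TNF and insulin and 2103 and 2342 with TNF alone. CFB was 0.27 ± 0.10 higher (adjusted p = 0.47), and at 8 h had 4053 and 2686 with TNF and insulin against 2350.4 and 2326 with TNF alone.

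Against insulin alone, TNF with insulin called 7 of the 8 genes as higher, and 20.3% of all probe sets were called, 8.9% as higher. C3 changed by 3.66 ± 0.24, C1S by 3.26 ± 0.14, CFB by 2.26 ± 0.10, C1R by 1.64 ± 0.13 and SERPING1 by 1.14 ± 0.08, and CD46 was the gene not called (-0.10 ± 0.24). The interaction of TNF and insulin called 0 of the 8 genes and 0.00745% of all probe sets. An unadjusted p under 0.05 was found for 2 members and 706 probe sets. CFB had the lowest p, at 0.56 ± 0.14 (95% interval 0.29 to 0.84, adjusted p = 0.311), followed by SERPING1 at 0.40 ± 0.11 (adjusted p = 0.445).

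The low-dose mixtures were set against TNF at 5 ng/ml alone. With EGF at 1 ng/ml limma called 0 of the 8 genes and 0% of all probe sets, although 2 members and 560 probe sets had an unadjusted p under 0.05. The 2 members were CD59, at 0.39 ± 0.11 (95% interval 0.17 to 0.62), and CD55, at 0.31 ± 0.11 (0.09 to 0.54), both with an adjusted p of 1. With insulin at 5 ng/ml limma again called 0 of the 8 genes and 0% of all probe sets, with 0 members and 279 probe sets at an unadjusted p under 0.05, and the members' changes lay between -0.13 for C3 and 0.11 for CD59.

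**Figure D4:**
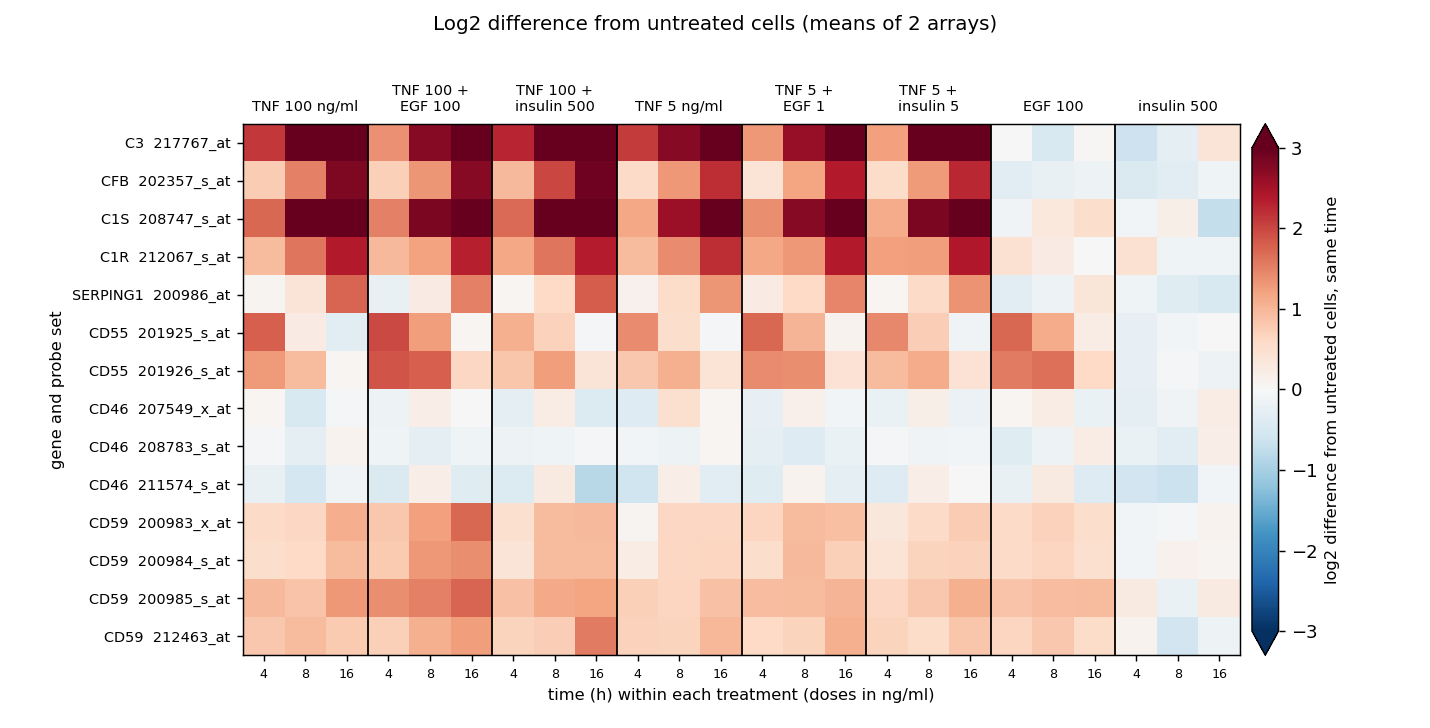
Log2 difference from untreated cells of the same time (colour, means of 2 arrays, cut at -3 and 3) for the 14 probe sets kept, by treatment and time. The 6 treatments with TNF darken with time in C3, CFB, C1S, C1R and SERPING1, whereas CD55 is dark at 4 h with TNF or EGF and pale at 16 h.

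Across all treatments the presence of TNF separated the components completely. At each time, all 12 arrays with TNF lay above all 6 arrays without it for C3, CFB, C1S and C1R, as 0.834% of all probe sets did. C3 passed the filter only through groups with TNF, so some difference in it was built in. The share covers only probe sets that passed the filter. At 16 h C3 had 717 to 1449 with TNF (median 945) and 28.2 to 49.9 without (median 35.7). CFB had 3712 to 6157 with TNF (median 4759) and 682 to 831 without (median 747). The C1 proteases were apart as well. C1S had 3607 to 5925 with TNF (median 4236) and 103 to 433 without (median 313). C1R had 854 to 1346 with TNF (median 1071) and 174 to 224 without (median 192). SERPING1 was apart at 8 h, as were 2.28% of all probe sets, and at 16 h, as were 3.93%, with 1856 to 2710 (median 2068) with TNF and 481 to 993 (median 744) without at 16 h, and overlapped at 4 h. CD55 and CD46 overlapped at each time, and CD59 was apart at 16 h, with 5968 to 15471 with TNF and 3674 to 5797 without.

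Over time 1 member was called in untreated cells, which had interferon-gamma as all groups did. Between 4 and 16 h CD55 rose by 2.58 ± 0.19 (adjusted p = 1.03e-11) and by 2.12 ± 0.23 on its second probe set, while 9.59% of all probe sets were called over time, 5.7% as higher. Untreated CD55 signals at 16 h, 4107 and 3551, were far above those at 4 h, 483 and 818, and the 8 h values of 963 and 1049.8 lay between. The other 7 genes were not called, at -0.24 for SERPING1, 0.18 for CFB, 0.24 for C1R and 0.05 for C3. With TNF at 100 ng/ml, 7 genes were called over time, all with a higher mean at 16 h than at 4 h. Of all probe sets 22.2% were called, 11.7% as higher. The rise was 2.81 ± 0.42 for C3, 2.23 ± 0.24 for C1S, 2.21 ± 0.17 for CFB and 1.69 ± 0.23 for C1R. SERPING1 rose by 1.42 ± 0.14, CD59 by 0.64 ± 0.20 and CD55 by 0.44 ± 0.19. With TNF at 5 ng/ml the same 7 were called (15.4% of all probe sets, 7.88% as higher), CD59 with an adjusted p of 0.0455. The CD59 calls over time were lost without either 16 h array at 100 ng/ml (adjusted p at most 0.161) and without any 4 h or 16 h array at 5 ng/ml (at most 0.249). Both were also lost under median centring and in a fit of only the groups compared, and the one at 5 ng/ml with no filter or no intensity trend (at most 0.236). The F test also covers 8 h, where both CD55 arrays with TNF at 100 ng/ml lay below both at 4 h. Without the 8 h arrays the CD55 call at this dose was lost (adjusted p = 0.113). With the mean of both CFB probe sets, which brings in the dim 211920_at, the CFB change at 100 ng/ml was 0.55 and was not called (adjusted p = 0.223).

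The TNF effect at 100 ng/ml differed between 4 and 16 h by its own test in 6 of the 8 genes. The difference, 16 h minus 4 h, was positive in 5 and negative in 1. Of all probe sets 2.44% were called, 1.31% with a positive and 1.13% with a negative difference. A negative difference can also be a stronger fall at 16 h. The difference in effect was 2.76 ± 0.59 for C3 (adjusted p = 0.0161), 2.38 ± 0.34 for C1S (6.08e-05), 2.03 ± 0.24 for CFB (1.58e-06), 1.66 ± 0.19 for SERPING1 (6.98e-07) and 1.44 ± 0.33 for C1R (0.0256). For CD55 it was -2.14 ± 0.27 (4.96e-06), and -1.22 ± 0.32 on the second probe set (0.0636). The C3 call was lost without the first 4 h or 16 h array of either group or the second untreated 16 h array, with 2.41 at the lowest (adjusted p = 0.101), and under median centring (adjusted p = 0.0761). The C1R call was lost without these or the second 4 h array of TNF, with 1.15 at the lowest (adjusted p = 0.224), under median centring (0.175) and in a fit of only the groups compared (0.2). With the mean of both CFB probe sets the CFB difference was 0.44 and was not called (adjusted p = 0.847). CD46 and CD59 did not pass, at -0.10 ± 0.60 and 0.51 ± 0.28. At 5 ng/ml 4 genes passed (0.916% of all probe sets, 0.522% with a positive and 0.395% with a negative difference). The difference was 2.44 ± 0.34 for C1S, 1.65 ± 0.24 for CFB and 1.21 ± 0.19 for SERPING1. For CD55 it was -1.48 ± 0.27, a call lost without the first untreated 4 h array (-1.11). Median centring ended the calls of CD55 (adjusted p = 0.0512) and SERPING1 (0.078) at this dose, as did a fit of only the groups compared (0.198 and 0.158), and the mean of both probe sets ended that of CFB (1.28, adjusted p = 0.176). C3 and C1R, at 2.13 ± 0.59 and 1.26 ± 0.33, had adjusted p-values of 0.164 and 0.122.

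Over the means of the 27 groups the log2 signals of C3, CFB, C1S, C1R and SERPING1 correlated at 0.90 to 0.98. Among the 18 groups with TNF the range was 0.93 to 0.99, and among the 9 without it -0.42 to 0.79. These points share arrays, times and treatments, and no p is given. CD55 correlated with those 5 genes at 0.35 to 0.47, CD59 at 0.71 to 0.79, and CD46 at -0.32 to -0.26. The probe sets of 1 gene correlated at 0.96 for CD55 and at 0.86 to 0.99 for CD59, but at 0.36 to 0.78 for CD46 and 0.47 for CFB.

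By the same measure, among the 8105 genes, the gene most like C3 was RARRES1 (r = 0.979), and the next were C1S and CFB. CFB was most like DRAM1 (0.975), followed by C3 and C1RL (0.973), the C1r-like gene next to C1R on chromosome 12. C1S and SERPING1 were most like IDO1, the interferon-induced enzyme of tryptophan breakdown, at 0.977 and 0.947, and C1R was most like STAP2 (0.980). CD55 was most like EPS8, an EGF receptor substrate, at 0.921, followed by GAREM1 and KLF5. CD59 was most like TIMP1, an inhibitor of metalloproteinases, at 0.918, followed by PDP1 and DUSP5. CD46 reached at most 0.817, with SCAF4. Among the 9 groups without TNF, r was 0.45 for C3 with RARRES1 and 0.66 for CFB with DRAM1. There IDO1 had 0.79 with C1S and 0.64 with SERPING1, and STAP2 had 0.76 with C1R. The values were 0.95 for CD55 with EPS8, 0.89 for CD59 with TIMP1 and 0.90 for CD46 with SCAF4.

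Of 45 other complement genes listed, 37 were on the array and 16 had a probe set that passed the filter. TNF at 100 ng/ml raised 2 of the 16 and lowered none, and their median change was 0.07, where 16.3% of all probe sets were called and 6.69% as higher. They were C1RL, at 1.14 ± 0.18 (adjusted p = 8.93e-06), and ITGAM, the alpha chain of complement receptor CR3, at 1.20 ± 0.14 (adjusted p = 1.33e-07). TNF at 5 ng/ml raised the same pair, by 1.13 and 1.34, where 6.81% of all probe sets were called and 4.26% as higher. EGF and insulin called none of the 16, where 0.596% and 0.231% of all probe sets were called. C4BPB, a chain of the C4b-binding protein, had an adjusted p of 0.123 with EGF. In untreated cells C4BPB was the one gene of the list to rise between 4 and 16 h, by 1.25 ± 0.23 (adjusted p = 0.000789). There 9.59% of all probe sets were called, 5.7% as higher, so 1 of 16 is near the share over all. The terminal components C6 and C8B passed the filter with mean signals of 112 and 108 and were not called.

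Markers of other cell types were set beside these values, and their part in the results was not tested. The 11 epithelial markers summed to 59819.5 to 92015 on arrays with TNF and 57575 to 99474 without. The summed signal of 6 hepatocyte markers was 4331 to 14109 on arrays with TNF and 3307 to 5256 without. SERPINA1, an acute-phase gene that intestinal epithelium also expresses, made up most of it with a mean of 6181, while ALB, APOA1, FGB and HP averaged 39.2 to 60.8. The summed leukocyte markers, 5232 to 10160 with TNF and 4784 to 9218 without, were mostly LYZ, with a mean of 6688. The fibroblast and endothelial sums were 504 to 1245 and 110.2 to 430.1 with TNF, and 694 to 1258 and 134 to 355 without.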

How the data were processed

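The members, the other complement genes, the cell type markers and the tests were chosen with earlier results of these data known. Groups and replicate numbers come from the sample titles. The deposited values are linear signal intensities from MAS5, per the submitters' processing notes. Trimming 2% of the values at each end left a mean of 500.2 on each array, and no scaling was added. The table held 22283 probe sets, 68 of them controls. The platform annotation names 1 gene for 19065 of the others, several for 1043 and no gene for 2107.

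Values were analysed as log2 after adding 12.49. The filter asked for a group mean of at least 7.24, the median of all log2 values (a signal of 138.9), in 1 group or more, and left 13422 probe sets of 8105 genes. A model with 1 mean per group was fitted to all 54 arrays in limma 3.58.1 (R 4.3.3), with an intensity trend and 27 residual degrees of freedom. For comparisons of times the F test covers 8 h and 16 h against 4 h, and the value given is 16 h minus 4 h. The genes named are the 8 members, up to 8 other complement genes and the 3 genes most like each member. The fit was checked on simulated data with independent noise on each array, which leaves out deviations that same-numbered arrays share. Replicates 1 and 2 are labelled as biological. In 36 of 36 pairs of groups at 8 h, same-numbered arrays deviated together, with a correlation over 0.1 (median 0.43). This held in 27 of 36 pairs at 4 h (median 0.20) and 31 of 36 at 16 h (median 0.21). The numbers thus went with shared deviations at each time, most strongly at 8 h, by the data and not the labels. The main fit has no block for them. A block for the 8 h arrays was added after seeing the data. Other alternatives were the constant, the filter, quantile normalization, median centring, no trend, a block over all times or within each, a fit of only the groups compared, the mean of a gene's probe sets, and leaving out arrays.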

Additional observations from a re-analysis of the deposited data

Results flagged for a closer look

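These results are listed because the difference between times, or between cells with and without another factor, passed a test of that difference itself. The effect of TNF at 100 ng/ml was larger at 16 h than at 4 h by 2.76 for C3, 2.38 for C1S, 2.03 for CFB, 1.66 for SERPING1 and 1.44 for C1R on the log2 scale, and differed by -2.14 for CD55. Of these, the C3 call was lost under median centring (adjusted p = 0.0761), the C1R call under median centring (0.175) and in a fit of only the groups compared (0.2), and the CFB call with the mean of both probe sets (0.44, adjusted p = 0.847). The effect of TNF at 5 ng/ml was larger at 16 h by 2.44 for C1S, 1.65 for CFB and 1.21 for SERPING1, and differed by -1.48 for CD55. The CFB call was lost with the mean of both probe sets (adjusted p = 0.176), and those of SERPING1 and CD55 under median centring (0.078 and 0.0512) and in a fit of only the groups compared (0.158 and 0.198). For CD55 the effect of TNF at 100 ng/ml at 4 h differed by -1.55 between cells with and without EGF at 100 ng/ml. That call was lost under median centring (adjusted p = 0.284), with no intensity trend (0.0561) and in a fit of only the groups compared (0.156). The second CD55 probe set was called neither in this test nor in that of the time difference at 100 ng/ml. Losses on leaving out single arrays are given with the results.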

How the results depend on the processing

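Each array was left out in turn. The number of the 8 genes called stayed at 7 for the higher TNF dose against untreated cells and for TNF with insulin against insulin, at 6 for TNF with EGF against EGF, and at 0 between the TNF doses. It ranged from 6 to 7 for TNF at 5 ng/ml, from 1 to 2 for EGF, and from 0 to 1 for insulin, for EGF or insulin added to TNF at 100 ng/ml, and for the interaction of TNF and EGF. Between 16 and 4 h it ranged from 6 to 8 with TNF at 100 ng/ml and from 6 to 7 at 5 ng/ml, and for the change of the TNF effect from 4 to 6 and from 3 to 4. Insulin added to TNF at 100 ng/ml called 1 gene, CD55, under a stricter filter, with a replicate block over all times, within each time or for the 8 h arrays, and with the mean of a gene's probe sets, where its value turned to 0.029 (-0.0057 as reported). Leaving out single arrays moved that value between -0.089 and 0.077, with a called value of 0.055 without the first 8 h array of TNF. The interaction of TNF and EGF called 1 gene, CD55, under the stricter filter, quantile normalization, a replicate block over all times or within each time, and the mean of probe sets. EGF added to TNF called 0 genes under median centring, without the 8 h arrays, without those of replicate 2 and with only the groups compared. It called 2, CD55 and CD59, with the block within each time and with the mean of probe sets. EGF alone called 1 gene, without CD59, with no intensity trend, without the 8 h arrays or those of replicate 2, and with only the groups compared. The change of the effect of TNF at 5 ng/ml called 2 genes, without SERPING1 and CD55, under median centring and with only the groups compared. The block within each time added C1S between the TNF doses (1 gene called) and SERPING1 as lower over time in untreated cells (2 genes called). The causes of these shifts were not tested. The block for the 8 h arrays moved no other count of members by over 1.5 times. Signals near the constant, as for C3 without TNF, limit the size of a fold change more than its direction.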
